A study of Homo sapiens with 6 samples.

Results

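Genes that respond to oxidative or metal stress were followed in HEK-293T cells that express the squid protein reflectin A1 (RfA1) fused to GFP, and in cells that express GFP alone. HMOX1, NQO1, GCLM, SRXN1, TXNRD1 and SLC7A11 are targets of the transcription factor NRF2. MT1X, MT2A, MT1E and SLC30A1 are genes of the metal response. All 10 are among the 16655 genes of the table, and 9 of them had enough counts to be tested. MT1E did not.

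HEK-293T cells derive from human embryonic kidney and carry large T antigen of SV40. Both groups were transfected with a lipid reagent (Lipofectamine) and harvested by trypsin 24 h later. The GFP group (3 libraries) received the empty vector pEGFP-C1, and the RfA1 group (3 libraries) received pEGFP-C1-RfA1, so that the groups share GFP, the vector and the lipid. Transfection is transient, and a dish therefore holds cells with and without the plasmid. In bulk RNA, a change in every cell and a larger change in some of the cells cannot be told apart. The labels do not say whether the libraries come from separate cultures, and the p-values measure only the spread between these libraries. Plasmid transcripts were not analysed here.

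NRF2, encoded by NFE2L2, is held in the cytoplasm and passed to degradation by KEAP1, an adaptor of a CUL3 ubiquitin ligase. Electrophiles and oxidants modify cysteines of KEAP1, after which NRF2 accumulates, pairs with small MAF proteins and binds antioxidant response elements (AREs) in the promoters and enhancers of its targets, where BACH1 acts as a repressor. The metal response runs through MTF1, a zinc finger protein that binds metal response elements (MREs) when free zinc rises and drives the metallothioneins and the zinc exporter SLC30A1. Oxidants can also release zinc from metallothionein, and HMOX1 and the metallothioneins answer both metals and oxidants.

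The promoter sequences show which of the genes carry the core letters of either element close to the start of transcription. RefSeq windows that begin 250 bases upstream of the start (GRCh38.p14) were matched for 7 of the 10 genes, and none was matched for HMOX1, SLC7A11 and MT1E. On both strands, the ARE core was searched as TGACNNNGC and the MRE core as TGCACNC or TGCGCNC. Of 35116 windows of all genes, 10.9% hold the ARE letters and 24.8% the MRE letters. A match describes letters and is not evidence of binding. The stretches below, read 5′ to 3′ on the strand of the gene, have the match in capitals, as TGACNNNGC or its reverse complement for the NRF2 targets.
GCLM, chr1:93909446-93909475, minus strand: ctacgatttctGCTTAGTCAttgtcttcca
TXNRD1, first start, chr12:104215669-104215698, plus strand: tacacgggctaTGACTTCGCtgttgtcacc
TXNRD1, second start, chr12:104286919-104286948, plus strand: agtggatttctGCTTTGTCAttctgactct

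The match lies 34 to 26 bases before the start of GCLM. In TXNRD1 it lies 99 to 91 bases before the first start and 102 to 94 bases before the second. The windows of NQO1 and SRXN1 hold neither core, which says only that these letters are not in these windows. For the metal-response genes the capitals mark the MRE core or its reverse complement. MT1X is shown over the 204 bases that lead up to its first annotated exon, because its 4 matches are spread along them.
MT1X, chr16:56682220-56682423, plus strand: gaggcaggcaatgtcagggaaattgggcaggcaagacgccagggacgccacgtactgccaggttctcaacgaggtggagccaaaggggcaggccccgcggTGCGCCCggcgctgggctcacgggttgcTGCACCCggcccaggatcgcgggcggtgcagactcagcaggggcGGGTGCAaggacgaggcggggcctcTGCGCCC
MT2A, chr16:56608426-56608455, plus strand: ccgggTGCGCCCggcccagTGCGCGCggcc
SLC30A1, chr1:211579193-211579222, minus strand: aacgggggttccGAGTGCAaagcaaagttt

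The MT2A stretch shows 2 of the 7 MRE matches in its window, and 0.37% of all windows hold at least 4. The windows of MT2A and NQO1 and the second TXNRD1 window have 0 bases before the first annotated exon, which belongs to the same gene. Matches there lie upstream of the RefSeq start but not of every annotated exon. The GCLM window has 224 such bases, and its ARE match runs just into the exon. SLC30A1 has 1 MRE match, 49 to 43 bases before its RefSeq start. The end of the SLC30A1 window was not found in a GENCODE 29 transcript, unlike that of the other windows, so its strand and start were taken from the RefSeq table without that check. The division of the genes by element is not clean at the level of letters. MT1X, MT2A and SLC30A1 also hold 1 ARE match each, which for MT2A lies 104 to 96 bases before the start, and the GCLM window and the first TXNRD1 window hold 1 MRE match each.

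The libraries hold 10272306 to 11566284 counts. Across all genes the RfA1 libraries do not form one group. The first principal component holds 43.1% of the variance, and its gene loadings follow transcript GC content (Spearman's rho 0.738 across genes, which are not independent replicates). RfA1 replicate 2 has a score of 10.2 on it and lies with GFP replicates 2 and 3 (18.8 and 12.7), whereas RfA1 replicates 1 and 3 are at -16.9 and -22.8 and GFP replicate 1 is at -2.05. Results for the stress genes are therefore also given without RfA1 replicate 2 and with a correction for transcript GC content. All 7 markers of HEK-293T cells were at 1 TPM or more in every library, with sums of 891 to 1070 TPM in the GFP group and 928 to 1130 TPM in the RfA1 group. Of 14 markers of other cell types, 10 are in the table. They summed to 10.5 to 14.9 and 9.88 to 13.1 TPM respectively, most of it from COL1A1 (a fibroblast collagen, 8.2 to 10.05 TPM). PTPRC, PECAM1, VWF, DCN and NPHS1 were at 0.09 TPM or less.

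The levels of the 10 genes were compared in TPM, which is scaled for transcript length. MT2A is the highest with a mean of 685.4 TPM over the 6 libraries (range 533.9 to 830.2), above 98.9% of the genes in the table, and MT1X follows with 335.7 TPM (305.0 to 361.2). Both encode small cysteine-rich proteins that bind zinc and copper. Among the NRF2 targets TXNRD1 leads with 55.4 TPM (45.6 to 66.5). SRXN1 (32.6 TPM, 28.0 to 38.1) and HMOX1 (29.3 TPM, 24.3 to 36.6) overlap, with SRXN1 the higher in 4 of 6 libraries. GCLM (8.13 TPM, 6.94 to 9.13) and SLC30A1 (7.79 TPM, 6.89 to 9.22) also overlap, each being the higher in 3 libraries. SLC7A11 has a mean of 3.44 TPM (2.58 to 5.68) and NQO1 of 1.285 TPM (1.0 to 1.75). NQO1, often used as a sentinel of NRF2 activity, is therefore the least expressed of the NRF2 targets here. MT1E is listed at 0 in 5 of 6 libraries.

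**Figure D1:**
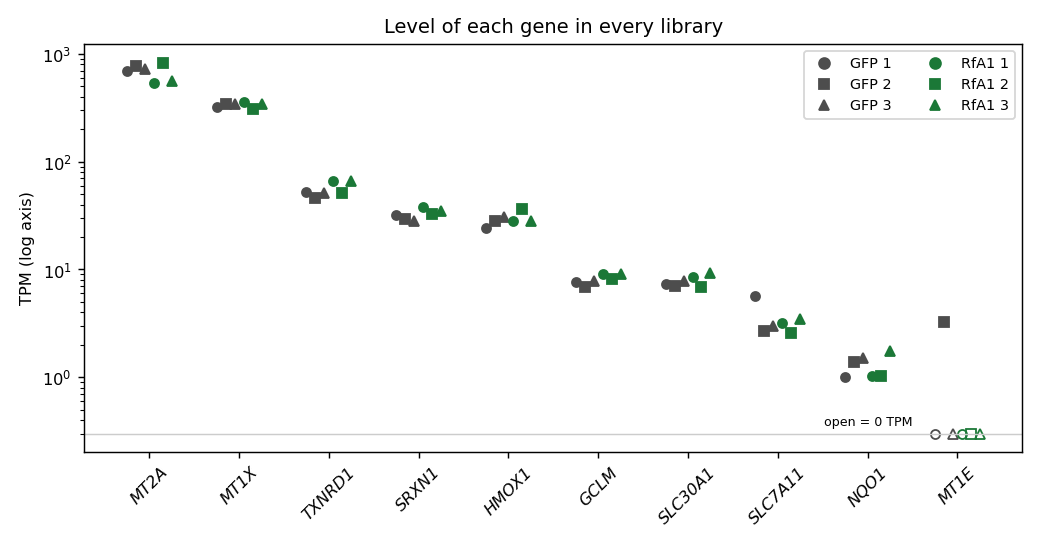
Level of the 10 genes in TPM (log axis) in each of the 6 libraries, in order of the mean, with GFP in grey and RfA1 in green. Open symbols on the grey line stand for 0 TPM. MT2A and MT1X lie above the other 8 genes in every library, and the MT2A levels of RfA1 replicates 1 and 3 are below those of the other 4 libraries.

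In the comparison of RfA1 with GFP, no stress gene passed an adjusted p of 0.05 (edgeR's quasi-likelihood test, Benjamini-Hochberg adjustment over 13002 genes). In that test 10 genes, or 0.0769% of those tested, passed, and 0 of the 9 stress genes tested are among them. With an unadjusted p under 0.05 there was 1, TXNRD1, which was higher with RfA1, and none that was lower, against 7.3% of all tested genes higher and 6.64% lower. The 3 RfA1 libraries lay above the 3 GFP libraries for TXNRD1, SRXN1 and GCLM, which is 3 of 9 against 9.86% of all tested genes. For no stress gene did they lie below, against 8.01% of all tested genes. The median log2 fold change over all tested genes is -0.0024. Below, CPM stands for counts relative to the TMM-normalized library size, and is given with the mean ± SD over n = 3 libraries and adjusted p-values of this edgeR test.

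The thioredoxin branch holds TXNRD1 and SRXN1, the NRF2 targets with the largest log2 fold changes in the uncorrected fit of all 6 libraries. With the GC correction HMOX1 (0.2241) and SRXN1 (0.2229) have the largest, ahead of TXNRD1 (0.1765). TXNRD1 encodes the cytosolic thioredoxin reductase, which keeps thioredoxin reduced with NADPH. It was at 124.2, 114.7 and 127.0 CPM in GFP replicates 1 to 3, and at 150.0, 128.8 and 151.2 CPM in the RfA1 replicates. RfA1 replicates 1 and 3 are high, whereas replicate 2 lies just above the highest GFP library. The means are 122.0 ± 6.455 and 143.3 ± 12.61 CPM, and the log2 fold change is 0.23 with an SE of 0.088 (95% interval 0.039 to 0.43, adjusted p = 0.307). By p-value it ranks at 950 of the tested genes. With the GC correction it is 0.18 (adjusted p = 0.145). Without RfA1 replicate 2, it is 0.30 with an SE of 0.073 and passes the edgeR test (adjusted p = 0.00847), in a fit in which 8.56% of all tested genes pass as higher and 11.5% as lower.

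SRXN1 encodes sulfiredoxin, which restores overoxidized peroxiredoxins. It was at 52.44, 50.66 and 46.44 CPM with GFP and at 58.97, 55.38 and 53.83 CPM with RfA1. The groups do not overlap, but the lowest RfA1 library is close to the highest GFP library. The means of 49.85 ± 3.082 and 56.06 ± 2.637 CPM differ by 0.17 on the log2 scale (SE 0.088, 95% interval -0.022 to 0.36, adjusted p = 0.400 in the edgeR test). Without RfA1 replicate 2 the log2 fold change is 0.18, and with the GC correction 0.22.

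GCLM and SLC7A11 act in the supply of glutathione, the main thiol of the cell. GCLM encodes the modifier subunit of glutamate-cysteine ligase, the enzyme of the first step of glutathione synthesis. Its level was 25.73, 25.24 and 27.02 CPM with GFP and 29.21, 28.5 and 29.16 CPM with RfA1. The 3 RfA1 libraries are close to each other and all lie above the GFP libraries. The means are 25.99 ± 0.918 and 28.96 ± 0.396 CPM, and the log2 fold change is 0.16 (SE 0.091, 95% interval -0.043 to 0.35, edgeR adjusted p = 0.445). It is 0.17 without RfA1 replicate 2, and 0.041 with the GC correction (adjusted p = 0.870). The GCLM transcript used has a GC content of 37.3%.

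SLC7A11 encodes the cystine carrier of system xc-, which brings in the cysteine for that synthesis. It was at 26.54, 19.15 and 20.57 CPM with GFP and 20.11, 18.11 and 22.3 CPM with RfA1. The groups overlap, and GFP replicate 1 is the highest of the 6. The means of 22.09 ± 3.919 and 20.17 ± 2.093 CPM give a log2 fold change of -0.13 (SE 0.14, 95% interval -0.43 to 0.17, edgeR adjusted p = 0.666). The log2 fold change is 0.021 without GFP replicate 1, -0.058 without RfA1 replicate 2, and -0.25 with the GC correction (SE 0.097, adjusted p = 0.204). The TPM of SLC7A11 in that library, 5.68, stands further from the other 5 (2.58 to 3.5 TPM) than the CPM does. After scaling for the library, its counts per TPM in GFP replicate 1 were 0.697 of their median over the 6 libraries, against 0.994 to 1.0 in the other libraries.

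HMOX1 and NQO1 complete the NRF2 targets. HMOX1 encodes heme oxygenase 1, which opens heme to biliverdin, iron and carbon monoxide. It was at 22.49, 27.36 and 28.78 CPM with GFP and at 24.75, 35.46 and 24.87 CPM with RfA1. RfA1 replicate 2 is the highest of the 6 libraries, and the other RfA1 libraries lie within the GFP range. The means are 26.21 ± 3.3 and 28.36 ± 6.147 CPM, and the log2 fold change of 0.11 (SE 0.15, 95% interval -0.21 to 0.44, edgeR adjusted p = 0.741) becomes -0.079 without RfA1 replicate 2 (adjusted p = 0.655). With the GC correction it is 0.22 (adjusted p = 0.278). The interval of the uncorrected fit of all 6 libraries spans 0.862 to 1.356 times the GFP level.

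NQO1 encodes a quinone reductase. It had estimated counts of 18, 26.35 and 28 with GFP and of 17, 18 and 28 with RfA1, or 1.619, 2.295 and 2.472 CPM against 1.547, 1.716 and 2.668 CPM. The groups span the same range. The log2 fold change is -0.11 with an SE of 0.28 (95% interval -0.73 to 0.51, edgeR adjusted p = 0.871), the widest interval of the 9 tested genes. Differences of either sign within this interval are compatible with these low counts. The log2 fold change is -0.022 without RfA1 replicate 2 and -0.16 with the GC correction.

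**Figure D2:**
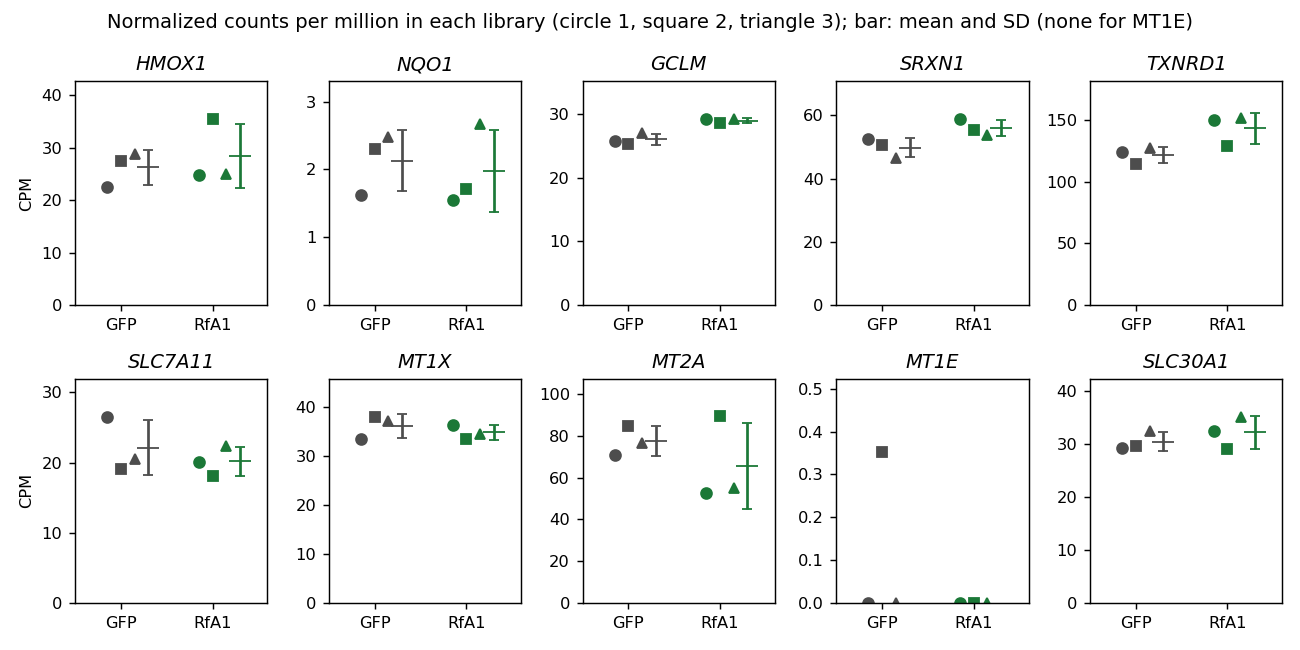
CPM of each gene in the 3 GFP (grey) and 3 RfA1 (green) libraries, with every axis starting at 0 and bars for the mean ± SD. GCLM, SRXN1 and TXNRD1 are the genes whose RfA1 libraries all lie above the GFP libraries, and MT2A in RfA1 spreads from 52.79 to 89.31 CPM.

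On the metal side the libraries of the RfA1 group differed widely in MT2A. It was at 70.7, 84.81 and 76.72 CPM with GFP and at 52.79, 89.31 and 54.88 CPM with RfA1. RfA1 replicates 1 and 3 are the lowest of the 6 libraries, while RfA1 replicate 2 is the highest. The means are 77.41 ± 7.078 and 65.66 ± 20.51 CPM. The log2 fold change is -0.24 (SE 0.17, 95% interval -0.61 to 0.13, edgeR adjusted p = 0.519). Without RfA1 replicate 2 it is -0.52 with an SE of 0.090 and passes the test (adjusted p = 0.00147, in the fit with 11.5% of genes lower). With the GC correction and all 6 libraries it is -0.19 (adjusted p = 0.723). The part of GC content and of replicate 2 in the MT2A result was not tested.

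MT1X was at 33.37, 38.04 and 37.08 CPM with GFP and at 36.4, 33.46 and 34.49 CPM with RfA1. All 3 RfA1 libraries lie within the GFP range. The means of 36.16 ± 2.464 and 34.78 ± 1.495 CPM give a log2 fold change of -0.056 (SE 0.093, 95% interval -0.26 to 0.15, edgeR adjusted p = 0.794). That interval is 0.836 to 1.107 times the GFP level, and the sign turns with the GC correction (0.0014) and on the TPM scales. Without RfA1 replicate 2 the log2 fold change is -0.028. The ratio of MT2A to MT1X in TPM was 2.16, 2.27 and 2.11 with GFP and 1.48, 2.72 and 1.62 with RfA1, so that the RfA1 libraries stand on both sides of the GFP libraries.

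The metallothionein genes are close copies in one cluster on chromosome 16. How the authors' counting treated reads shared between them is not given, so single members are uncertain. MT1E had 4 estimated counts in GFP replicate 2 and 0 in the other 5 libraries, where a floor of 3 counts in a library corresponds to 0.265 to 0.286 CPM. No fold is given for it. Of 8 further metallothionein genes MT1F is the one in the table. It had 35, 44 and 30 counts with GFP and 47, 29 and 27 with RfA1, and its means of 3.227 ± 0.621 and 3.205 ± 0.934 CPM give a log2 fold change of -0.0049 (SE 0.25, edgeR adjusted p = 0.993). When all metallothionein counts were summed, the libraries held 1192, 1440 and 1319 counts with GFP and 1027, 1317 and 965 with RfA1. The log2 fold change of this sum, tested as a gene of its own, is -0.17 (SE 0.12, edgeR adjusted p = 0.509).

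SLC30A1 encodes ZnT1, which exports zinc across the plasma membrane. It was at 29.32, 29.74 and 32.49 CPM with GFP and 32.49, 29.07 and 35.25 CPM with RfA1. RfA1 replicate 3 is the highest and replicate 2 the lowest of the 6. The log2 fold change is 0.081 (SE 0.10, 95% interval -0.14 to 0.30, edgeR adjusted p = 0.729), and it is 0.15 without RfA1 replicate 2 and -0.033 with the GC correction.

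**Figure D3:**
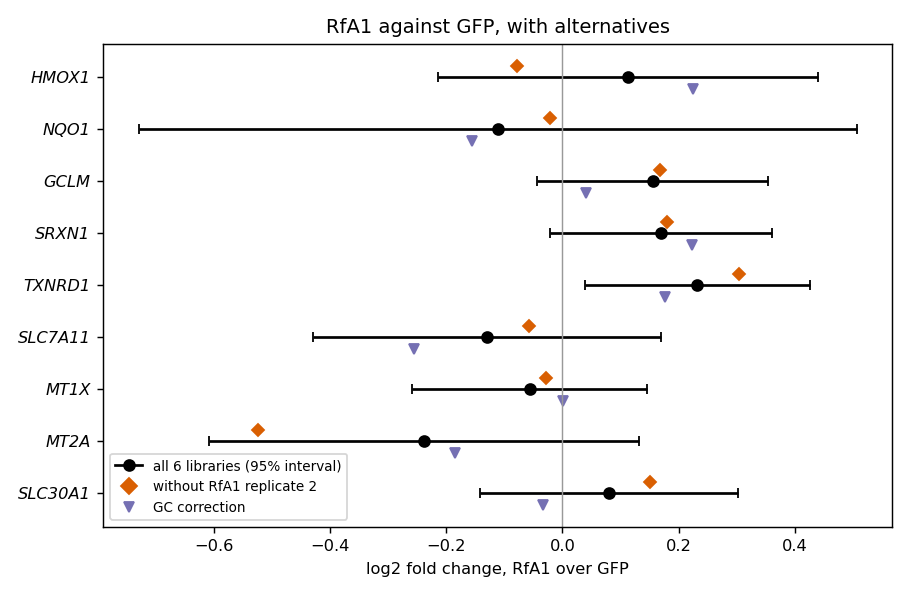
Log2 fold change of RfA1 over GFP for the 9 tested genes, with black points and bars for all 6 libraries and their 95% intervals, orange diamonds for the fit without RfA1 replicate 2, and purple triangles for the GC correction. The interval of TXNRD1 alone lies above 0 (0.039 to 0.43), and leaving out RfA1 replicate 2 moves MT2A from -0.24 to -0.52 and HMOX1 from 0.11 to -0.079.

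Set side by side, the NRF2 targets have a median log2 fold change of 0.13 (range -0.13 to 0.23, 4 positive and 2 negative) and the 3 tested metal-response genes of -0.056 (range -0.24 to 0.081), whose sign turns on the log2(TPM + 1) scale (0.00033). The difference of the medians is 0.19. Without RfA1 replicate 2 that difference is 0.10, and the median of the NRF2 targets is 0.073. Without GFP replicate 1 the NRF2 median is 0.084. In single libraries, the median deviation of the NRF2 targets from their GFP means is 0.0066, -0.0083 and 0.058 with GFP and 0.047, 0.11 and 0.14 with RfA1 on the log2 scale, and RfA1 replicate 1 lies below GFP replicate 3. The metal-response genes gave -0.11, 0.075 and 0.038 with GFP and 0.012, -0.068 and -0.066 with RfA1. Both sets overlap between the groups. Neither set is uniform within a library. In RfA1 replicate 2 HMOX1 is 0.44 and MT2A 0.21 above the GFP mean, whereas in RfA1 replicates 1 and 3 HMOX1 lies at -0.07 and MT2A at -0.55 and -0.49. TXNRD1 has the reverse order, with 0.30 and 0.31 in RfA1 replicates 1 and 3 and 0.08 in replicate 2. The GC content of the transcripts is 58.1% for HMOX1, 53.9% for MT2A and 44.8% for TXNRD1. It is 53.7% for MT1X and 53.6% for SRXN1, close to that of MT2A, but their order over the libraries differs from that of MT2A. In RfA1 replicates 1, 2 and 3, MT1X is at 0.012, -0.11 and -0.066, and SRXN1 at 0.24, 0.15 and 0.11. The part of GC content in these deviations was not tested.

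**Figure D4:**
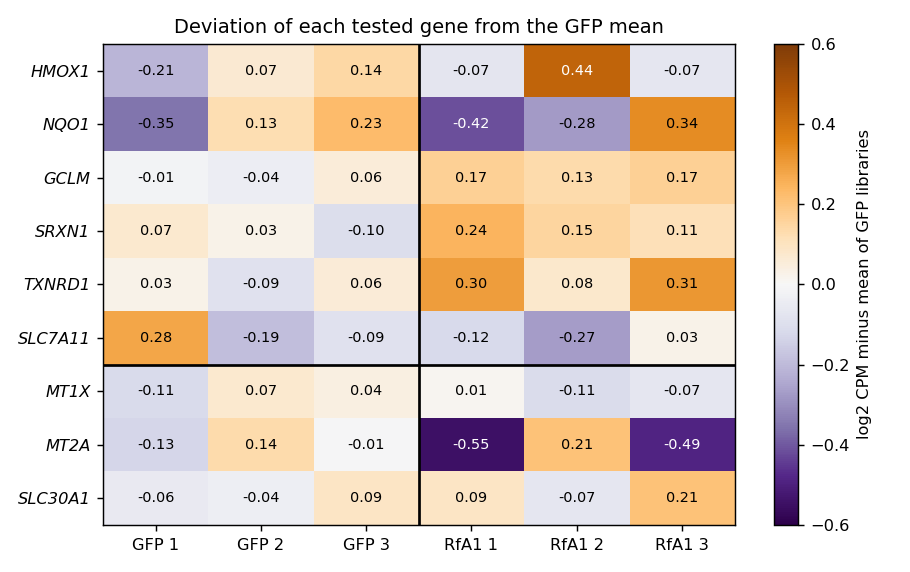
Deviation of each tested gene from its mean over the GFP libraries, as a difference of log2 CPM in each of the 6 libraries, with the NRF2 targets above the horizontal line and the metal-response genes under it. GCLM, SRXN1 and TXNRD1 are positive in all 3 RfA1 libraries (0.08 to 0.31), and HMOX1 and MT2A are high together in RfA1 replicate 2.

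Of the 4 regulators NFE2L2, KEAP1, BACH1 and MTF1, the transcript of NRF2 itself has the smallest p. NFE2L2 was at 57.39, 53.04 and 53.15 CPM with GFP and at 70.62, 68.82 and 69.94 CPM with RfA1. The groups do not overlap, and RfA1 replicate 2 lies with the other RfA1 libraries. The means are 54.53 ± 2.481 and 69.79 ± 0.91 CPM, a fold of 1.28, and the log2 fold change is 0.36 (SE 0.080, 95% interval 0.18 to 0.53). It ranks at 62 of the tested genes by p-value and does not pass the edgeR test (adjusted p = 0.175). It passes with the GC correction (log2 fold change 0.31, adjusted p = 0.0171), in a fit in which 142 of 13002 tested genes pass as higher. It also passes without RfA1 replicate 2 (0.37, adjusted p = 0.00601), where 8.56% of all tested genes pass as higher. Over 17 alternatives, NFE2L2 passes in 4 and does not pass in 13, among them DESeq2 (adjusted p = 0.129). NRF2 is mainly controlled at the level of its protein, which was not measured in these libraries.

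KEAP1, which hands NRF2 to degradation, was at 86.36, 90.72 and 92.62 CPM with GFP and at 85.91, 102.2 and 73.65 CPM with RfA1. The RfA1 libraries lie on both sides of the GFP libraries (log2 fold change -0.043, SE 0.11, edgeR adjusted p = 0.871), and it is -0.17 without RfA1 replicate 2 and 0.093 with the GC correction. BACH1, the repressor at the same elements, overlapped as well (20.69, 17.92 and 18.28 CPM against 20.48, 17.35 and 22.49 CPM, log2 fold change 0.085, adjusted p = 0.758), with 0.18 without RfA1 replicate 2 and -0.023 with the GC correction. MTF1, the metal sensor, was at 25.82, 21.8 and 21.9 CPM with GFP and at 28.85, 23.45 and 31.92 CPM with RfA1. RfA1 replicate 2 lies among the GFP libraries and the other 2 above them. Its log2 fold change of 0.28 (SE 0.13, edgeR adjusted p = 0.360) is 0.39 without RfA1 replicate 2, where it passes (adjusted p = 0.0166, in the fit with 8.56% of genes higher).

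**Figure D5:**
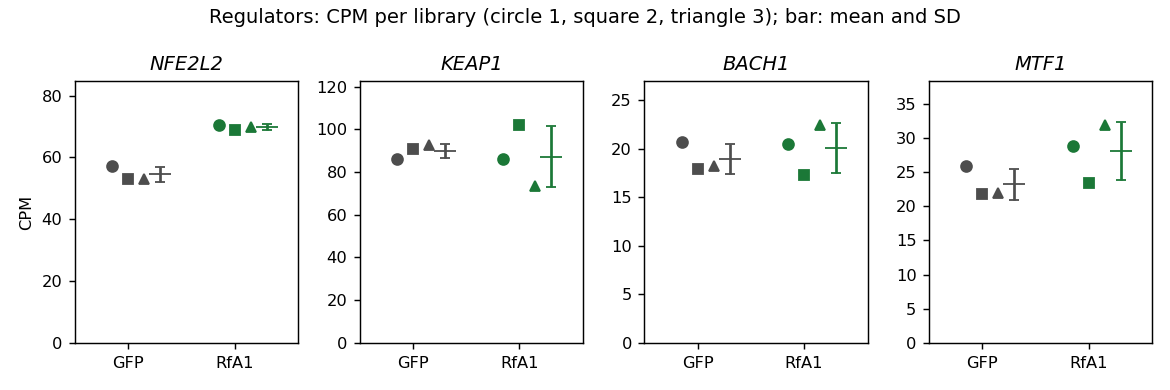
CPM of the regulators NFE2L2, KEAP1, BACH1 and MTF1 in the 3 GFP (grey) and 3 RfA1 (green) libraries, with axes from 0 and bars for the mean ± SD. The NFE2L2 levels of the RfA1 libraries (68.82 to 70.62 CPM) lie above those of the GFP libraries (53.04 to 57.39 CPM), and the other 3 genes overlap.

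The other genes of these pathways were read from lists, none of which has a member past the adjusted p of 0.05 in the edgeR test. Their counts at an unadjusted p under 0.05 stand against 7.3% of all tested genes higher and 6.64% lower, and their signs against 49.5% of all tested genes positive. Among 14 regulators and partners of NRF2, all tested, 12 have a positive log2 fold change, with a median of 0.091 (0.18 without RfA1 replicate 2, 0.10 with the GC correction). An unadjusted p under 0.05 was reached by 5 of them, all higher with RfA1 (7.3% of all tested genes). Beside NFE2L2 these are the small MAF partners MAFK (0.34) and MAFG (0.25), the ligase scaffold CUL3 (0.23) and the KEAP1-binding protein PALB2 (0.27), which were named after their values were seen. DPP3, another KEAP1 binder, has the smallest p among the 2 negative members (log2 fold change -0.11, adjusted p = 0.553).

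Of 32 further NRF2 targets 26 were tested, with 14 positive and 12 negative and a median of 0.015, whose sign turns without RfA1 replicate 2 (-0.026) and which is 0.057 with the GC correction. Unadjusted, 3 were higher (7.3% of all tested genes) and 1 lower (6.64%). ME1, the malic enzyme that makes NADPH, was at 24.05 ± 1.263 CPM with GFP and 29.51 ± 1.351 CPM with RfA1 (log2 fold change 0.30, edgeR adjusted p = 0.262). GCLC (0.27), the catalytic partner of GCLM, and the glutathione conjugate exporter ABCC1 (0.20) are the other two higher genes, named after their values were seen.

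Of 24 zinc transporters and metal sensors 19 were tested, 12 of them positive, with a median of 0.071 (0.18 without RfA1 replicate 2, 0.051 with the GC correction). SLC30A5, which loads zinc into the early secretory pathway, was at 44.46 CPM with GFP and 55.02 CPM with RfA1 (log2 fold change 0.31, edgeR adjusted p = 0.262), and its relative SLC30A7 has a log2 fold change of 0.28 (named after its value was seen). That of SLC30A7 falls to 0.073 on the log2(TPM + 1) scale and to 0.078 on the log2(TPM + 0.1) scale. SLC39A13, an importer of zinc to the cytosol, was at 40.6 CPM with GFP and 32.02 CPM with RfA1 (-0.34, adjusted p = 0.294). These 3 are the members with an unadjusted p under 0.05, 2 higher against 7.3% of all tested genes and 1 lower against 6.64%.

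Of the antioxidant enzymes that are not on the NRF2 lists, 27 of 29 were tested, with 13 positive and 14 negative and a median of -0.036, whose sign turns without RfA1 replicate 2 (0.023) and with the GC correction (0.019). The mitochondrial thioredoxin reductase TXNRD2 is the 1 gene with an unadjusted p under 0.05, against 6.64% of all tested genes lower. It was at 51.17 CPM with GFP and 42.03 CPM with RfA1 (log2 fold change -0.28, edgeR adjusted p = 0.333). With the GC correction it is -0.12 (adjusted p = 0.385), and the GC content of its transcript is 62.6%. The smallest p among the positive members was that of GPX8 (0.20, adjusted p = 0.364), a peroxidase of the endoplasmic reticulum.

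Heme and iron genes (13 tested, median 0.081, and 0.050 with the GC correction) include 2 with an unadjusted p under 0.05, both higher against 7.3% of all tested genes, the iron exporter SLC40A1 (log2 fold change 0.42, edgeR adjusted p = 0.316) and the transferrin receptor TFRC (0.28, named after its value was seen). HMOX2, the constitutive heme oxygenase, has the smallest p among the negative members (-0.21, adjusted p = 0.377). The median of the 8 copper genes is -0.024 (-0.0018 without RfA1 replicate 2). SLC31A2 is the 1 past the unadjusted threshold, against 7.3% of all tested genes higher (0.55, SE 0.21, from 2.927 to 4.276 CPM, adjusted p = 0.313). Its counts are low, at 25, 39 and 35 with GFP and 53, 45 and 39 with RfA1. COMMD1 has the smallest p among the negative members (-0.16, adjusted p = 0.614).

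SLC7A11 is also a target of ATF4, the factor of the integrated stress response. Of 10 ATF4 genes, 7 have a negative log2 fold change and the median is -0.055 (-0.10 without RfA1 replicate 2, -0.013 with the GC correction). Unadjusted, 2 were lower, against 6.64% of all tested genes, and none higher. CHAC1, which degrades glutathione, was at 30.64 CPM with GFP and 24.04 CPM with RfA1 (log2 fold change -0.35, edgeR adjusted p = 0.254), and PHGDH, the first enzyme of serine synthesis, has a log2 fold change of -0.17 (named after its value was seen). SLC7A5, an amino acid transporter, has the smallest p among the positive members (0.11, adjusted p = 0.492). It passes with the GC correction (0.27, adjusted p = 0.0374), in the fit with 142 of 13002 tested genes higher.

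Several of the list genes named above pass the edgeR test without RfA1 replicate 2, in the fit with 8.56% of all tested genes higher and 11.5% lower. They include ME1, GCLC, MAFK, PALB2, SLC30A5, SLC30A7 and TFRC as higher (log2 fold changes 0.28 to 0.41), and SLC39A13, TXNRD2, HMOX2, CHAC1 and PHGDH as lower (-0.21 to -0.50). List genes not named above were not looked up singly in the alternative fits, so no count of passing genes over the lists is given. With the GC correction and all 6 libraries, the named genes MAFK (0.52, adjusted p = 0.00125), MAFG (0.35, adjusted p = 0.0324) and ABCC1 (0.27, adjusted p = 0.0359) pass. In that fit 142 of 13002 tested genes pass as higher. The same correction brings the log2 fold change of SLC39A13 to -0.18, of CHAC1 to -0.19, of HMOX2 to -0.11, of ME1 to 0.20, of CUL3 to 0.13, of SLC30A7 to 0.16 and of GPX8 to 0.11, and without RfA1 replicate 2 that of COMMD1 is -0.059.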

How the data were processed

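RNA-seq libraries of GFP (n = 3) and RfA1 (n = 3) HEK-293T cells were compared. The labels gave the group and the replicate number. The authors deposited 1 table with the estimated counts of each library, not normalized, together with the authors' TPM, which sum to one fixed total, and the authors' FPKM. FPKM and group averages were not used. Per the submitters' processing notes HISAT and GRCh38.p13 were used. The counting tool and the annotation are not given in the sources used here.

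Estimated counts were rounded. Genes kept by filterByExpr (minimum count 10, minimum total 15) were TMM-normalized and tested two-sided with the robust quasi-likelihood test of edgeR 4.0.16 (R 4.3.3). P-values were adjusted by Benjamini-Hochberg, with a threshold of 0.05. CPM are counts scaled to the normalized library size. The biological coefficient of variation was 8.83%. TPM served for levels, per library and gene. The scripts were tested on simulated data.

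The genes and lists were chosen with earlier results of these data known, and so was the GC correction (an offset from a 5-df spline of each library on the GC content of the longest GENCODE 29 transcript of a gene, with 98.2% of the table matched). All 10 stress genes and the regulators NFE2L2, KEAP1, BACH1 and MTF1 were named, as were other metallothioneins in the table and, from each wider list, genes past the threshold or, with none, the smallest p in each direction. Other genes named are marked as such. The result of 1 gene that the rule names is not reported here. Alternatives were DESeq2 1.42.0, upper-quartile and total-count scaling, no filter or at least 10 counts in every library, the replicate number as a block, limma 3.58.1 on log2(TPM + 1) and log2(TPM + 0.1), the GC correction with and without the block, summed metallothionein counts, an unadjusted p, and each library left out in turn. Lists were described by counts and medians without a test.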

Additional observations from a re-analysis of the deposited data

How the results depend on the processing

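The number of genes past the threshold, 10 with all libraries, was 6 with upper-quartile scaling, 20 without a filter, 33 with DESeq2, 191 with the GC correction, 4 with limma on log2(TPM + 1) and also 4 on log2(TPM + 0.1), 1812 unadjusted, and 0 to 2636 with a library left out, the highest without RfA1 replicate 2. The labels do not say whether libraries with the same replicate number are paired, and the correlations of their deviations (0.141, 0.296 and -0.138) do not settle it. With the replicate number as a block 625 genes passed, and 465 with the block and the GC correction together. Under the block the named genes NFE2L2 (adjusted p = 0.0130), MAFK (0.0155), SLC39A13 (0.0276), SLC30A5 (0.0325), TFRC (0.0387) and CHAC1 (0.0418) passed and none of the stress genes did (TXNRD1 0.0616, MT2A 0.0963). List genes that are not named were not looked up singly. The number of stress genes past the threshold was 0 to 2 with a library left out (TXNRD1 and MT2A without RfA1 replicate 2) and 1 unadjusted. The median log2 fold change of the NRF2 targets (0.134) was 0.183 and 0.195 with log2(TPM + 1) and log2(TPM + 0.1), and 0.0727 to 0.171 with a library left out, lowest without RfA1 replicate 2. That of the metal-response genes ranged from -0.112 to 0.00033 and the difference from 0.101 (without RfA1 replicate 2) to 0.231. Over 151 alternatives for single stress genes, 139 kept the direction and the side of the threshold and 10 changed sign. Over 458 for the other named genes, 408 kept both, 32 passed newly and 18 changed sign. Of the stress genes, the GC correction turned MT1X (0.0014) and SLC30A1 (-0.033), with the block added 0.00064 and -0.032. MT1X also turned on the TPM scales (0.00033 and 0.00032). With a library left out, SLC7A11 ranged from -0.22 to 0.021, NQO1 from -0.39 to 0.039 and HMOX1 from -0.079 to 0.20. Of the other named genes, the GC correction turned DPP3 (0.024), MT1F (0.12), KEAP1 (0.093) and BACH1 (-0.023), with the block added 0.023, 0.098, 0.091 and -0.024. MT1F was 0.013 with total counts, and on the TPM scales MT1F was 0.013 and 0.012 and KEAP1 0.0045 on both. With a library left out MT1F ranged from -0.27 to 0.15, KEAP1 from -0.17 to 0.064 and BACH1 from -0.0031 to 0.18. The cause of these changes was not tested. NFE2L2 was positive in all alternatives. Low counts limit NQO1, MT1E, MT1F and SLC31A2.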

Other observations

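The counts and TPM of SLC7A11 part in GFP replicate 1, where the counts that stand for 1 TPM, after scaling for the library, differ 1.44-fold from the library with the most. Over the other 8 tested stress genes this spread was 1.0 to 1.03. Its median was 1.02 over the 11883 tested genes with at least 1 TPM in every library. Of these 11883 genes, 150 (1.26%) had a spread at least as large as that of SLC7A11.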
